A study of Mus musculus with 6 samples.

Results

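The NADPH oxidases are enzyme complexes that carry electrons from NADPH across a membrane to oxygen and so form superoxide, the starting point of reactive oxygen species (ROS). Their genes were followed in neurosphere-derived EGCs (enteric glial cells, which surround the neurons of the gut), with and without lipopolysaccharide (LPS), a bacterial cell wall component. The genes were taken by symbol: Cybb, Cyba, Ncf1, Ncf4, Nox1, Nox4 and Rac2, in all 7 of the 46603 gene identifiers counted, and all 7 were found. The filter on low counts removed Nox1 and left 6 of them among the 15226 genes tested. RNA was sequenced in bulk from 3 untreated control samples and 3 samples kept with 100 ng/ml LPS for 12 h. All came from cultures grown from neurospheres, floating clusters of neural progenitors, that had been prepared from E14.5 mouse embryos (strain C57BL/6J), the total intestine being the source. No step that purified glia from the other cells of the gut wall was given for these cultures in the sources used here. The libraries held 18775316 to 23664312 counts, and levels are given as CPM, counts scaled to library sizes that were corrected for composition.

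The phagocyte oxidase is the best known member of the family. Its catalytic subunit NOX2, the product of Cybb, sits in the membrane bound to p22phox, the product of Cyba, and is silent until cytosolic partners join it. Among these partners are the organiser p47phox (Ncf1), the adaptor p40phox (Ncf4) and a Rac GTPase, which in blood-derived cells is mainly RAC2. NOX1, a form known from colon epithelium, works in a like manner with its own organiser and activator. NOX4 binds p22phox as well but is active without cytosolic partners, so its output is set largely by how much of it is made. In the gut wall, resident macrophages are a known site of the phagocyte oxidase.

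To show sequence at these genes, the 250 bases before the RefSeq transcription start were read from the RefSeq promoter table (GRCm38.p6), which held 5 of the 7 genes. Ncf4 and Rac2 had no entry. Sequences are printed for Cybb and Ncf1, which had the largest fold changes of the tested genes in the table, and for Cyba and Nox4, which had the smallest. They run 5′ to 3′ on the strand of the gene and end at the base before the start, and capitals mark matches to the motifs named below.
Cybb, chrX:9469325-9469574, minus strand: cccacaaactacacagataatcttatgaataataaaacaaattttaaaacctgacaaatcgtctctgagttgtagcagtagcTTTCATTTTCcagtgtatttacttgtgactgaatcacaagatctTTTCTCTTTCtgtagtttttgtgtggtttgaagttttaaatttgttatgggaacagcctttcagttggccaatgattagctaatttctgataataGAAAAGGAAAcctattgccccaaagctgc
Ncf1, chr5:134229626-134229875, minus strand: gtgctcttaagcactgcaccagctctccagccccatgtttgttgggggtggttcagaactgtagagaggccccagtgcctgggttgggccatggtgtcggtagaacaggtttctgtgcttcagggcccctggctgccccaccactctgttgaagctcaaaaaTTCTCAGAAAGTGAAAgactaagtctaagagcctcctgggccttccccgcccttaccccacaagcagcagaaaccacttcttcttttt
Cyba, chr8:122432941-122433190, minus strand: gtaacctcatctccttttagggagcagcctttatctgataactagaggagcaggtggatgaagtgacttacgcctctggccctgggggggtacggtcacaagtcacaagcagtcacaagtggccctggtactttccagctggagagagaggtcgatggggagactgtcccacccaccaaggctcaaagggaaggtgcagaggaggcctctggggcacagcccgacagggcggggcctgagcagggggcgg
Nox4, chr7:87246399-87246648, plus strand: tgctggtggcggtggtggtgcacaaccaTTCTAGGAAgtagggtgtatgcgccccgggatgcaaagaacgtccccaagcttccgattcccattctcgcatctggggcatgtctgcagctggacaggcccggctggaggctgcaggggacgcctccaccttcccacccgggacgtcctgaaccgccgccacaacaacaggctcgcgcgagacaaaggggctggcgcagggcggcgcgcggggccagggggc
The RefSeq start used here is not always the end of the gene in the GENCODE M21 annotation, and the windows of Cybb, Nox4 and Nox1 lie inside the GENCODE spans of these genes given below. None of the windows overlapped a GENCODE exon. Motifs were searched on both strands, and they were chosen after the sequences had been seen: the GAAA repeat (GAAA, NN, GAAA; an interferon-stimulated response element in short form), TTCNNNGAA (a STAT site), GAGGAA (a PU.1 core) and the NF-κB site. The Cybb window held 3 matches to the GAAA repeat, at bases 168 to 159 and 124 to 115 before the start on the other strand and at bases 29 to 20 on the strand of the gene. At least 1 match to this motif stood in 2.98% of all 32851 windows of that length, and at least 3 matches in 4 windows (0.0122%). The Ncf1 window held 1 match at bases 82 to 73, which overlapped a TTCNNNGAA match at bases 88 to 80. A TTCNNNGAA match at bases 222 to 214 was the single one of the Nox4 window, and 7.02% of all windows held this motif. The window of Cyba had none of the 4 motifs. That of Nox1, not printed because the gene was near the detection floor, had a GAGGAA match (23.3% of all windows) and an NF-κB match (7.25% of all windows). A match describes letters only, and binding was not measured.

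Next, expression was compared between LPS and control. Of the 6 tested genes Cybb rose most, about 8-fold, and it was the single one called with the group as the only term (edgeR quasi-likelihood test, adjusted p = 0.0195, n = 3 each). Rac2, Ncf4 and Ncf1 had mean levels 4.21, 3.50 and 3.08 times those of control and Cyba 1.49 times, without passing this test. Nox4 was at 0.880 times its control mean. The call of 1 of 6 genes tested, in the higher direction, stands beside 9.09% of all tested genes called higher and 15.8% called in either direction. In 2 of the 6 genes, Cybb and Rac2, all LPS libraries were above all control libraries, as they were in 19.3% of all tested genes, and the reverse order, seen in 19.4% of genes, occurred in 0 of the 6. The median log2 fold change of the 6 genes was 1.71, and that of all tested genes was -0.02. The former depended on the libraries numbered 3, being 0.89 without LPS replicate 3 and 2.41 without control replicate 3.

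Libraries of the same number in the labels deviated together across both groups (r = 0.513, 0.334 and 0.613 for numbers 1, 2 and 3). Numbers 1 and 2 were hardly told apart, since control replicate 1 also correlated with LPS replicate 2 (r = 0.419). Control replicate 2 likewise did so with LPS replicate 1 (r = 0.323). A second fit compared LPS with control within numbers, where the pairing of numbers 1 and 2 rests on the labels. In this fit 5 of the 6 genes were called higher (Cybb, Cyba, Ncf1, Ncf4 and Rac2) and 0 lower, where 15.4% of all tested genes were called higher and 14.9% lower. The same 5 genes were called when both libraries numbered 3 were left out, a fit in which 22.6% of genes were called higher and 20.4% lower. DESeq2 without the block called 4 (Cybb, Ncf1, Ncf4 and Rac2), beside 13.7% of genes called higher and 11% lower. The 5 genes called with the block were higher in LPS within each of the 3 numbers, as were 31% of all tested genes, and Nox4 was lower within each, as were 34.6%. The labels do not say whether replicates were separate cultures or animals. The p-values with group alone measure the spread between these samples, and those of the blocked fit the spread left after differences between numbers. Either spread may be technical. In bulk RNA, a larger number of cells of a type and more RNA per cell cannot be told apart.

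**Figure D1:**
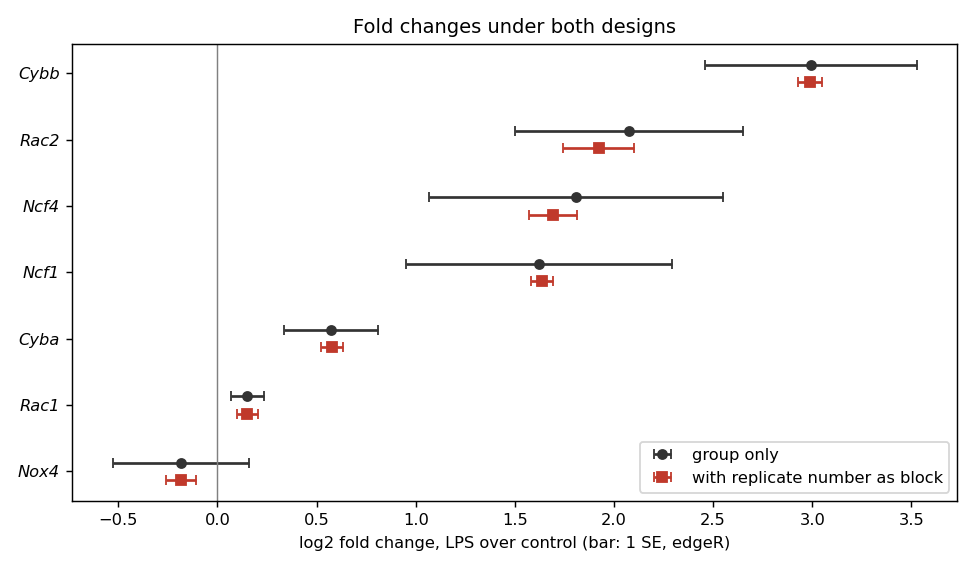
Log2 fold changes of LPS over control for the 6 tested genes and their partner Rac1, with bars of 1 SE, from the fit with group alone (circles) and the fit with the replicate number as a block (squares). The estimates of the 2 fits lie close to each other while the bars of the blocked fit are shorter, for Cybb 0.061 against 0.54.

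Among the catalytic subunits, Cybb (ENSMUSG00000015340, GRCm38 chrX:9435252-9487771, minus strand) was measured at 85.0, 126 and 229.9 CPM in control replicates 1, 2 and 3. In LPS replicates 1, 2 and 3 it stood at 685, 965 and 1859.9 CPM. Every LPS library was above every control library, and replicate 3 was the highest in both groups. Mean and SD over 3 libraries were 147 ± 74.7 CPM without and 1170.1 ± 614 CPM with LPS, which gave a log2 fold change of 2.99 (SE 0.54). Within numbers the LPS level was 8.06, 7.67 and 8.09 times that of control, and the blocked fit gave the same log2 fold change with an SE of 0.061 (edgeR adjusted p = 0.000108). With single libraries left out, the call with group alone was lost without the control library numbered 1 (edgeR adjusted p = 0.0717) or 2 (0.101), and without LPS replicate 2 (0.0643), where the log2 fold change was 2.72, 2.90 and 3.12. It held without control replicate 3 (edgeR adjusted p = 0.0205), LPS replicate 1 (0.0373) or LPS replicate 3 (0.0181). Over all alternatives its adjusted p ran from 6.95e-08 with DESeq2 to 0.101. No 50-base stretch of its transcripts was shared with another gene.

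Nox4 (ENSMUSG00000030562, chr7:87246096-87398710, plus strand), the constitutively active form, went the other way by a small amount. Its levels were 24.0, 21.9 and 12.3 CPM in control replicates 1 to 3 and 21.3, 19.1 and 10.8 CPM in LPS replicates 1 to 3. The groups overlapped, and replicate 3 was the lowest library in each, opposite to Cybb. Mean and SD were 19.4 ± 6.22 CPM without and 17.1 ± 5.51 CPM with LPS (n = 3 each; log2 fold change -0.18, SE 0.34, edgeR adjusted p = 0.759). Within numbers the ratios were close to each other, at 0.888, 0.871 and 0.880, and the blocked fit did not call the gene (edgeR adjusted p = 0.133). The sign of the fold change depended on the libraries, since it was 0.0091 without control replicate 1 and 0.057 without LPS replicate 3.

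Nox1 (ENSMUSG00000031257, chrX:134086421-134221956, minus strand) was close to undetected. It had 0, 0 and 1 counts in control replicates 1 to 3 and 5, 4 and 7 counts in LPS replicates 1 to 3. All LPS libraries were above the 3-count detection floor, which lay between 0.124 and 0.167 CPM, and no control library was. The summed counts, scaled for depth, gave a ratio of LPS to control of 19.7 with an exact 95% interval of 3.05 to 824, which covers counting error only. When the filter on low counts was dropped, Nox1 entered the fit over 24879 genes and was called (log2 fold change 3.81, edgeR adjusted p = 0.0473), beside 4.48% of the genes of that fit called higher and 3.28% lower. Of its exon bases, 12.07% overlap Cstf2 on the other strand, and how the counting treated strand was not given in the sources used here.

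Cyba (ENSMUSG00000006519, chr8:122424776-122432930, minus strand), the membrane partner that NOX2, NOX1 and NOX4 share, was at 95.9, 115 and 155 CPM in control replicates 1 to 3. In the LPS replicates it was at 143, 177 and 225 CPM. The lowest LPS library fell below the highest control library, although each LPS library exceeded the control library of its number. The means were 122 ± 30.2 and 182 ± 41.4 CPM (SD, n = 3 each), with a log2 fold change of 0.57 (SE 0.24, edgeR adjusted p = 0.159). Within numbers the LPS level was 1.49, 1.53 and 1.45 times that of control, and the blocked fit called the gene (log2 fold change 0.58, SE 0.054, edgeR adjusted p = 0.00444). Over all alternatives the adjusted p ran from 0.00444 to 0.353.

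The cytosolic organiser Ncf1 (ENSMUSG00000015950, chr5:134220053-134229625, minus strand) was at 49.6, 72.7 and 184 CPM in control replicates 1 to 3 and at 157, 228 and 557 CPM in LPS replicates 1 to 3. Control replicate 3 exceeded LPS replicate 1, so that the groups overlapped. The means were 102 ± 71.9 and 314 ± 214 CPM (SD, n = 3 each), with a log2 fold change of 1.62 (SE 0.67, edgeR adjusted p = 0.160). The ratios within numbers, 3.17, 3.14 and 3.03, were nearly equal, and the blocked fit called the gene (log2 fold change 1.64, SE 0.055, edgeR adjusted p = 0.000348). Its adjusted p ran from 0.000348 to 0.372 over the alternatives, and with group alone its log2 fold change was 0.91 without LPS replicate 3 and 2.38 without control replicate 3. Overlap with Gtf2ird2 on the other strand covers 11.14% of its exon bases.

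For the adaptor Ncf4 (ENSMUSG00000071715, chr15:78244801-78262580, plus strand) the control replicates 1 to 3 gave 7.80, 11.4 and 26.9 CPM. The LPS replicates gave 21.4, 34.9 and 105 CPM. Here too control replicate 3 stood above LPS replicate 1, and replicate 3 was the highest of each group. The means were 15.4 ± 10.2 and 53.9 ± 45.1 CPM (SD, n = 3 each; log2 fold change 1.81, SE 0.74, edgeR adjusted p = 0.158). LPS levels were 2.74, 3.05 and 3.91 times control within numbers, and the blocked fit called the gene (log2 fold change 1.69, SE 0.12, edgeR adjusted p = 0.00238). Over the alternatives the adjusted p ran from 0.00238 to 0.364. With group alone the log2 fold change of Ncf4 was 0.87 without LPS replicate 3 and 2.50 without control replicate 3.

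The GTPase Rac2 (ENSMUSG00000033220, chr15:78559167-78572783, minus strand) was at 43.9, 63.0 and 98.3 CPM in control replicates 1 to 3. Under LPS its levels were 140.0, 201 and 524 CPM. The groups did not overlap, as for Cybb, and replicate 3 was again the highest of each. The means were 68.4 ± 27.6 and 288 ± 207 CPM (SD, n = 3 each; log2 fold change 2.08, SE 0.58, edgeR adjusted p = 0.0628). Within numbers LPS was at 3.19, 3.18 and 5.33 times control, so that the pair numbered 3 differed from the other two, and the blocked fit called the gene (log2 fold change 1.92, SE 0.18, edgeR adjusted p = 0.00447). Its adjusted p ran from 0.00121 without both libraries numbered 3 to 0.199 without control replicate 2. Its log2 fold change with group alone was 1.31 without LPS replicate 3 and 2.45 without control replicate 3.

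**Figure D2:**
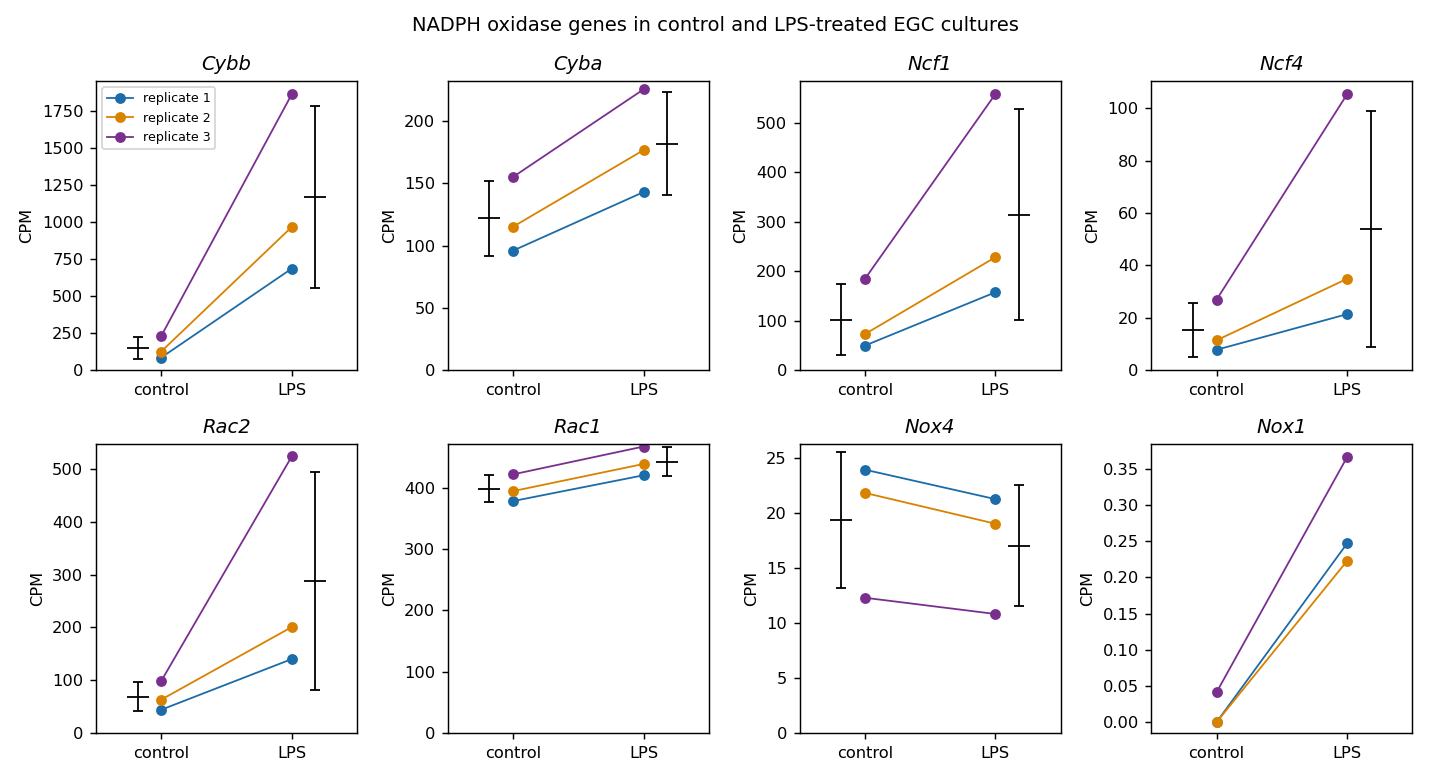
CPM of the 7 genes and of Rac1 in each library, with lines joining libraries of the same number and black marks for the mean and SD of each group of 3 (none for Nox1). Cybb and Rac2 separate the groups, Ncf1, Ncf4 and Cyba rise along each line with overlapping groups, and Nox4 is slightly lower in LPS along each line, from 24.0, 21.9 and 12.3 CPM.

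Rac1, the widely expressed Rac GTPase, was taken along as a partner that can stand in for Rac2, and it moved little. It was measured at 378, 395 and 422 CPM in control replicates 1 to 3 and at 420.4, 439 and 467 CPM in LPS replicates 1 to 3. Its log2 fold change was 0.15 (SE 0.085, edgeR adjusted p = 0.276, n = 3 each), and 0.0955 was the adjusted p of the blocked fit. Without both libraries numbered 3 it was called higher (log2 fold change 0.18, edgeR adjusted p = 0.0383). Scaling by library size alone brought the fold change to -0.0046. Of its exon bases 51.36% overlap Daglb on the other strand. Rac3, a further Rac GTPase known mainly from neural tissue, was called higher at a low level, from 5.97, 5.40 and 5.74 CPM in control to 13.2, 15.3 and 10.7 CPM in LPS (log2 fold change 1.19, SE 0.17, edgeR adjusted p = 0.00978). This call was lost without control replicate 1 (edgeR adjusted p = 0.0500) and without control replicate 2 (0.0645), and over the alternatives the adjusted p began at 8.52e-08.

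To compare the genes with each other, CPM was divided by the length of their exons in kilobases. In control, Cyba was the most abundant at 117 ± 29.0 CPM per kilobase (SD, n = 3). Ncf1 at 27.9 ± 19.6, Cybb at 25.3 ± 12.9 and Rac2 at 22.0 ± 8.89 CPM per kilobase followed and differed from each other by less than their SD. Below them came Ncf4 at 7.62 ± 5.04, Nox4 at 2.29 ± 0.734 and Nox1 at 0.0042 CPM per kilobase. Under LPS, Cybb reached 201 ± 106 CPM per kilobase and stood beside Cyba at 175 ± 39.9, a difference within their SD. Rac2 at 92.9 ± 66.6 and Ncf1 at 85.8 ± 58.3 likewise differed by less than their SD. By longest transcript their order turned, with Ncf1 at 109 and Rac2 at 94.9 CPM per kilobase. Ncf4 at 26.7 ± 22.3, Nox4 at 2.01 ± 0.650 and Nox1 at 0.0843 CPM per kilobase again closed the order. These SDs are over libraries and do not measure the spread of the difference between genes within a library. The most visible change of order was thus that of Cybb, from a place far below Cyba, in a group of 3 similar genes, to the level of its membrane partner.

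The make-up of the oxidase transcripts differed between the groups as well. Per kilobase, Cyba outnumbered Cybb 6.31-, 5.11- and 3.77-fold in control replicates 1 to 3, and the ratio was 1.17, 1.02 and 0.677 in the LPS replicates. Control and LPS did not overlap, and replicate 3 had the lowest ratio in both. Of the summed catalytic subunits (Cybb, Nox1, Nox3, Nox4, Duox1 and Duox2), Nox4 made up 15.5%, 10.4% and 3.52% in control replicates 1 to 3 and 2.08%, 1.33% and 0.398% in LPS. Cybb made up nearly all the rest, from 80.3%, 87.5% and 95.7% in control to 97.4%, 98.3% and 99.5% in LPS. Rac2 made up 14.4%, 18.8% and 25.2% of Rac1 plus Rac2 in control and 32.5%, 39.9% and 61.9% under LPS, so that it passed Rac1 in LPS replicate 3 alone. These shares are descriptions with no test. With the length of the longest transcript instead, the mean share of Nox4 was 16.0% in control and 2.22% in LPS.

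**Figure D3:**
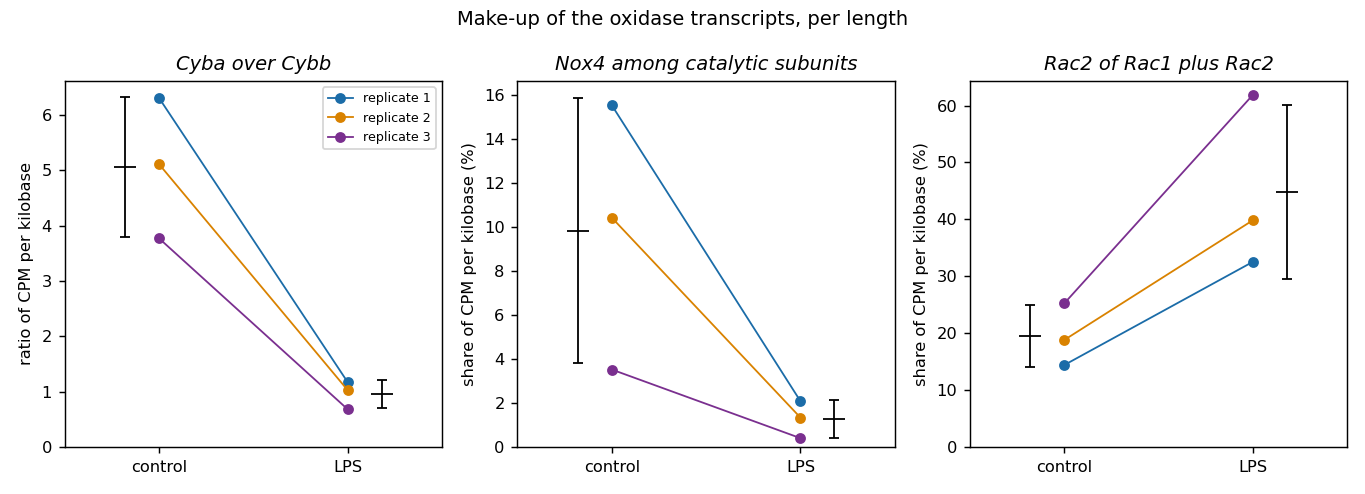
Ratio of Cyba to Cybb, share of Nox4 among the catalytic subunits, and share of Rac2 in Rac1 plus Rac2, all from CPM per kilobase in each library, with lines joining libraries of the same number and black marks for mean and SD (n = 3). In each panel the control and LPS libraries occupy separate ranges, for the ratio of Cyba to Cybb 3.77 to 6.31 against 0.677 to 1.17.

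Because several of these genes are known as phagocyte genes, markers of macrophages were measured beside them. All 12 macrophage markers had counts in every library, so that none was at 0, and Cx3cr1 came lowest with 4, 3 and 182 counts in LPS replicates 1 to 3. Their summed level was 3987, 5146 and 12144 CPM in control replicates 1 to 3 and 3982, 5165 and 19658 CPM in LPS replicates 1 to 3. The libraries numbered 3 stood at 2.66 times (control) and 4.30 times (LPS) the mean of the other two, and the pairs numbered 1 and 2 had nearly equal sums in LPS and control. This near-equality held only with Lyz2 (lysozyme), the most abundant marker, which gave 2888 of the 3987 CPM in control replicate 1. Without Lyz2 the sums were 1099, 1656 and 4166 CPM in control replicates 1 to 3 and 1598, 2096 and 8178 CPM in LPS replicates 1 to 3, and LPS was 1.45, 1.27 and 1.96 times control within numbers. Of the 12 markers, 7 had a higher and 5 a lower mean in LPS, Adgre1 was called higher with group alone (lost without any 1 of the libraries numbered 1 or 2, edgeR adjusted p up to 0.169), and the blocked fit called 4 higher (Adgre1, Aif1, Fcgr1, Ptprc) and 4 lower (Cd68, Cx3cr1, Mrc1, Tyrobp).

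Replicate 3 was also the highest library of each group in most of the oxidase genes, by factors that differed between genes. Cybb was 2.18 times the mean of the other two libraries in control and 2.25 times in LPS. For Ncf1 these factors were 3.01 and 2.89, for Ncf4 2.80 and 3.74, for Rac2 1.84 and 3.08, and for Cyba 1.47 and 1.41. Nox4 was lower in replicate 3, at 0.537 times in both groups, and Rac1 was about level, at 1.09 times in both.

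Expressed per 1000 CPM of summed macrophage markers, Cybb was at 21.3, 24.5 and 18.9 CPM in control replicates 1 to 3 and at 172, 187 and 94.6 CPM in LPS replicates 1 to 3, and the LPS mean was 7.01 times that of control. On this scale Rac2 was 3.21-fold, Ncf4 2.73-fold and Ncf1 2.68-fold higher in LPS, and these genes and Cybb kept the groups apart. Cyba was 1.38-fold higher and Nox4 at 0.850 times control, both with overlapping groups. Without Lyz2 the factors were 5.36 for Cybb, 2.44 for Rac2, 2.10 for Ncf4, 2.07 for Ncf1, 1.04 for Cyba and 0.625 for Nox4. On that scale Cyba was at 1.03, 1.21 and 0.740 times control within numbers. The sum pools markers that moved far apart. The LPS mean was 6.87 times control for Adgre1 (5.99, 5.50 and 7.84 times within numbers), 8.92 times for Aif1 (3.93, 3.13 and 13.2 within numbers) and 6.39 times for Fcgr1 (2.61, 1.91 and 8.53), beside 7.96 times for Cybb. The folds of Aif1 and Fcgr1 rested largely on LPS replicate 3, without which their log2 fold changes were 1.20 and 0.12 in place of 3.15 and 2.67. The log2 fold change of Adgre1 was then 1.95 in place of 2.78, and that of Cybb 2.49 in place of 2.99. The LPS mean was 1.18 times control for Lyz2, 0.563 times for Cd68 and 0.118 times for Mrc1, the mannose receptor. The log2 fold changes of these markers, 0.24, -0.83 and -3.08, also depended on the libraries numbered 3. They were -0.81, -1.49 and -5.44 without LPS replicate 3, and 0.84, -0.24 and -2.38 without control replicate 3. The part that the number or state of macrophages has in these results was not tested.

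**Figure D4:**
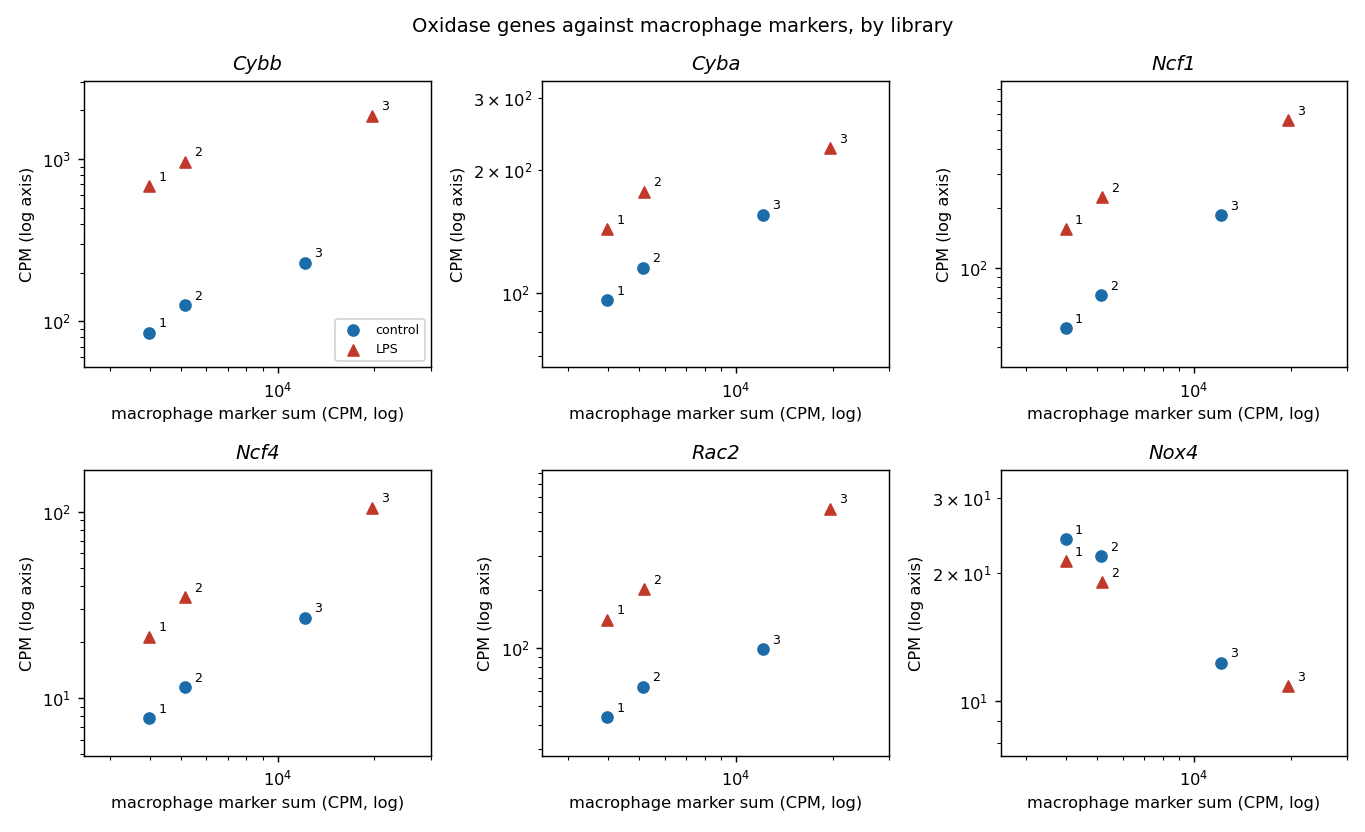
CPM of 6 oxidase genes against the summed CPM of 12 macrophage markers in each library (both axes logarithmic; circles, control; triangles, LPS; digits, replicate number). In the libraries numbered 1, whose marker sums are 3987 and 3982 CPM with Lyz2 and 1099 and 1598 CPM without it, LPS lies above control for Cybb, Cyba, Ncf1, Ncf4 and Rac2, while Nox4 lies slightly below its control.

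The other cell types that such cultures may hold were checked in the same way. Of 8 neutrophil markers, Ly6g, Cxcr2, Mpo, Elane and S100a9 had at most 3 counts in any library. S100a8 was called higher, from 3, 3 and 20 counts to 302, 243 and 77. Control replicates 1 and 2 were at the 3-count floor, so that it passed the filter only through the LPS libraries. With at least 10 counts asked of every library it dropped out, and 0 genes of this list were called. Csf3r, the G-CSF receptor, had 68, 75 and 319 counts in control replicates 1 to 3 and 331, 426 and 1364 counts in LPS, a 5.75-fold higher mean CPM without overlap (edgeR adjusted p = 0.0986; 0.000719 with the block). Its log2 fold change of 2.52 became 1.63 without LPS replicate 3 and 3.60 without control replicate 3. Mmp8 had 22 to 110 counts in control and 27 to 60 counts in LPS and was not called. The list summed to 4.03, 4.69 and 18.6 CPM in control and 33.4, 38.8 and 78.8 CPM in LPS, 5.53-fold higher in the mean. This factor depended on control replicate 3, which stood at 4.27 times the mean of the other control libraries. Within numbers the sum was 8.29, 8.28 and 4.24 times control. The part of this list in the oxidase results was not tested. The glia list, with Sox10 at 100.7, 89.5 and 73.8 CPM in control and 76.8, 78.2 and 75.9 CPM in LPS, summed to 286 to 404 CPM in control and 334 to 344 CPM in LPS, with Fabp7 called higher and S100b lower. The LPS range of this sum lay inside that of control. Smooth muscle markers summed to 2266 to 2492 CPM in control and 634 to 900.3 CPM in LPS with 6 of 6 called lower. Of these calls, that of Myh11 was lost without any single library but control replicate 3 (edgeR adjusted p up to 0.144) and that of Acta2 without control replicate 1 or 2 (up to 0.0636). Mesenchymal markers summed to 11951 to 12591 CPM in control and 11944 to 12457 CPM in LPS. Within this level sum, Dcn (1.86-fold, edgeR adjusted p = 0.0118) and Pdgfra (1.41-fold, 0.0114) were called higher with group alone, and Lum was called lower with the block (0.604 times control, edgeR adjusted p = 0.00581). The calls of S100a8, S100b, Dcn and Pdgfra were each lost without any 1 of the libraries numbered 1 or 2, and that of Fabp7 without any of these but LPS replicate 1 (edgeR adjusted p at most 0.0957 over these genes). Of the 4 endothelial markers, the blocked fit called Cdh5 and Pecam1 higher (edgeR adjusted p = 0.0306 and 0.0246). With group alone they were at 0.161 and 0.500. Cdh5 had 8, 5 and 16 counts in control and 12, 15 and 55 in LPS. Pecam1 had 14, 19 and 74 against 23, 29 and 117. Without LPS replicate 3 the log2 fold change of Pecam1 with group alone was -0.13. The other markers of this list, Kdr and Tek, had lower means in LPS. Kdr was at 0.624, 0.645 and 0.846 times control within numbers. The blocked fit did not call it (edgeR adjusted p = 0.0561), but it was called lower without both libraries numbered 3 (0.0120). Tek, with 18, 20 and 8 counts in control and 7, 8 and 3 in LPS, did not pass the filter. Epithelial markers were scarce, with Epcam at 3, 7 and 3 counts in control and 5, 1 and 7 in LPS, Vil1 at 0 to 1 counts, and Krt8 as the single one of 5 to pass the filter (edgeR adjusted p = 0.874).

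The other oxidase genes, Rac1 and Rac3 included, were examined as a list. Of 10 found by symbol, 6 were tested, and with group alone Rac3 was the single one called higher while 0 were called lower, beside 9.09% and 6.71% of all tested genes, with a median log2 fold change of 0.27 (0.029 without LPS replicate 2). The blocked fit, with 15.4% of all genes called higher and 14.9% lower, added BC017643, known as Cybc1, a chaperone needed for the NOX2 and p22phox pair. It was at 49.5, 46.1 and 61.6 CPM in control replicates 1 to 3 and at 66.6, 66.7 and 86.7 CPM in LPS, without overlap (log2 fold change 0.48, SE 0.16, edgeR adjusted p = 0.0957; 0.00755 with the block). The organiser and activator of NOX1 were low, Noxo1 at 18 to 47 counts and Noxa1 at 0 to 2 counts per library. The dual oxidase Duox1 had 22, 15 and 17 counts in control and 11, 8 and 3 counts in LPS, lower in every LPS library but not called (edgeR adjusted p = 0.198). Duox2 had 0 to 6 counts, and its maturation factor Duoxa2 had 0 counts in all 6 libraries.

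Finally, 20 genes that switch the oxidases on or off were examined, all of which were tested. With group alone, 3 were called higher (Hvcn1, Pak1 and Tiam1) and 1 lower (Sh3pxd2a), where 9.09% of all genes were called higher and 6.71% lower. The median log2 fold change was 0.19, with 0.033 without LPS replicate 3 and 0.40 without control replicate 3 as the extremes over single libraries left out. Hvcn1, the voltage-gated proton channel that offsets the charge moved by NOX2, was at 65.4, 69.4 and 87.7 CPM in control replicates 1 to 3 and at 113, 126 and 116 CPM in LPS (log2 fold change 0.68, SE 0.13, edgeR adjusted p = 0.0229). Every LPS library was above every control library. Pak1, a Rac-activated kinase that can phosphorylate p47phox, averaged 40.5 ± 3.17 CPM without and 56.5 ± 6.07 CPM with LPS (edgeR adjusted p = 0.0385). Tiam1, an exchange factor that loads Rac with GTP, averaged 17.8 ± 0.229 and 22.5 ± 1.38 CPM (edgeR adjusted p = 0.0497; SD over 3 libraries). Sh3pxd2a, a scaffold related to p47phox, fell from 347, 356 and 288 CPM in control to 234, 227 and 205 CPM in LPS (log2 fold change -0.57, SE 0.11, edgeR adjusted p = 0.0243).

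None of these 4 calls held under every choice of libraries. Leaving out any of the libraries numbered 1 or 2 ended those of Hvcn1 (edgeR adjusted p at most 0.112) and Sh3pxd2a (0.114), and leaving out either library numbered 3 did not. That of Pak1 was lost without any single library but LPS replicate 3 (up to 0.144), and that of Tiam1 without any of the 6 (up to 0.164). Scaling and filter ended these calls as well: upper-quartile factors gave Pak1 and Tiam1 an edgeR adjusted p of 0.104 and 0.126, library size alone 0.134 and 0.196, and no filter on low counts 0.0624 and 0.138. With limma-voom Tiam1 was at an adjusted p of 0.0516, and with library size alone its log2 fold change was 0.19 in place of 0.34. In the blocked fit 8 were called higher (Arhgdib, Hvcn1, Pak1, Pla2g4a, Prkcb, Prkcd, Tiam1, Vav1) and 4 lower (Nrros, Prkca, Sh3pxd2a, Vav3), beside 15.4% and 14.9% of all genes. Prkcd, a kinase of p47phox, was at 89.3, 97.4 and 145 CPM in control and 168, 199 and 271 CPM in LPS, and Prkcb, another one, at 16.7, 20.2 and 32.4 CPM in control and 41.0, 52.2 and 127 CPM in LPS. In both, the groups did not overlap and replicate 3 was the highest. Neither was called with group alone (edgeR adjusted p = 0.0579 for Prkcd and 0.0757 for Prkcb). Prkca, a further kinase of the list, went the other way. It was at 47.4, 44.1 and 30.0 CPM in control and 28.8, 32.3 and 25.4 CPM in LPS. Its edgeR adjusted p was 0.148 with group alone and 0.0383 with the block. Nrros, which holds back NOX2 by favouring its breakdown, was at 35.8, 46.8 and 100.0 CPM in control and 14.2, 17.6 and 75.3 CPM in LPS, lower within each number (log2 fold change -1.03 with the block, edgeR adjusted p = 0.0329; 0.530 with group alone). For Vav1, an exchange factor for Rac, the log2 fold change with group alone was 0.98, but -0.14 without LPS replicate 3 and 1.78 without control replicate 3.

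For each tested gene, the genes with the most similar profile over the 6 libraries were sought among 11474 genes with a mean of at least 5 CPM, by the root mean square difference of centred log2 CPM. Nearest to Cybb were Rassf4 (0.094), Ebi3 (0.16) and Psmb9 (0.17). Rac2 was followed most closely by Cd38 (0.11), Hcls1 (0.19) and Lcp2 (0.20). Ncf1 and Ncf4 shared Ccdc88b among their nearest 3, at 0.0997 and 0.13, next to Milr1 (0.11) and Rapgef5 (0.12) for Ncf1 and Sp110 (0.12) and Lrrc25 (0.20) for Ncf4. Cyba was nearest to Ccdc71l (0.059), Arhgap31 (0.063) and Crlf2 (0.073), and Nox4 to Pomgnt2 (0.029), Hip1r (0.066) and Ndn (0.066). Among the oxidase genes themselves, Ncf1 and Ncf4 were the closest pair at 0.14, followed by Ncf4 and Rac2 at 0.26 and Ncf1 and Rac2 at 0.28. Cybb lay 0.56 from Rac2, 0.70 from Ncf1 and 1.88 from Nox4. These differences describe the same 6 libraries, which share their group and their replicate number.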

How the data were processed

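Poly(A) RNA of 6 samples was sequenced with a stranded kit. The deposited values are raw counts per gene for each library, made by the authors by trimming reads with cutadapt 1.15, filtering them, aligning them to GRCm38 with STAR 2.5.2b and counting them; the submitters' processing notes also name Bowtie2 2.3.3.1, SAMtools 1.5 and featureCounts 1.5.3. Strand and multi-mapping settings were not given in the sources used here, so genes that overlap others are uncertain. A table of the whole series was not used.

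Genes and lists were chosen with earlier results of these data known. All 7 oxidase genes, every called gene of the other oxidase lists and Rac1 were named, except that 1 partner gene chosen by this rule is not reported here; further genes were picked as examples after their values were seen. Of the identifiers, 98.9% were found in GENCODE M21, which gave positions and lengths. Genes were filtered with filterByExpr (minimum count 10, total 15), scaled by TMM (factors 0.917 to 1.08) and tested two-sided with the edgeR 4.0.16 quasi-likelihood test (R 4.3.3), Benjamini-Hochberg adjustment over 15226 genes and a threshold of 0.05. SE is the absolute log2 fold change over the square root of F. The scripts were tested on simulated data. Libraries of the same number deviated together across genes (r = 0.513, 0.334 and 0.613 for numbers 1, 2 and 3), above the limit of 0.1 set for pairing, and the labels give no other source of pairing; control replicate 1 also correlated with LPS replicate 2 (r = 0.419) and control replicate 2 with LPS replicate 1 (r = 0.323), so that numbers 1 and 2 were hardly told apart. Alternatives were other scalings and filters, DESeq2 1.42.0, limma-voom (limma 3.58.1), the replicate block, each library left out, and, added after seeing the data, both libraries numbered 3 left out.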

Additional observations from a re-analysis of the deposited data

How the results depend on the processing

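The count of 1 oxidase gene called higher became 2 without the filter on low counts, 4 with DESeq2, 5 with the replicate block and 5 without both libraries numbered 3, and 0 to 1 when single libraries were left out. Other oxidase genes called higher numbered 2 with DESeq2, 2 with the block, 3 without both libraries numbered 3, and 0 to 1 with single libraries left out. Regulators called higher numbered 1 with upper-quartile factors, library size alone or no filter, 7 with DESeq2, 8 with the block, 9 without both libraries numbered 3, and 0 to 3 with single libraries left out. Regulators called lower numbered 2 with upper-quartile factors or library size alone, 4 with the block, 5 without both libraries numbered 3, and 0 to 2 with single libraries left out. Over all genes, 1384 were called higher and 1022 lower; no filter gave 1114 and 816 of 24879, DESeq2 2079 and 1673, the block 2343 and 2273, and the fit without both libraries numbered 3 gave 3498 and 3159. Leaving out single libraries gave 379 to 1964 higher and 112 to 1426 lower. Upper-quartile factors gave 1050 higher and 1589 lower and library size alone 986 and 2054, with the median of all genes at -0.12 and -0.18. The log2 fold change changed sign when single libraries were left out for Nox4 (-0.41 to 0.057), and for Rac1 (-0.0046 with library size alone). Among the partner genes it also changed sign with single libraries left out for Vav1 (-0.14 to 1.78), Dock2 (-1.21 to 0.70), Noxo1 (-0.10 to 0.67), Nox3 (-0.69 to 0.13), Tiam2 (-0.31 to 0.054) and Rap1a (-0.18 to 0.28). By longest transcript, Cyba stood at 164 and 244 and Nox4 at 4.95 and 4.35 CPM per kilobase in control and LPS. Per macrophage marker without Lyz2, LPS over control was 2.10 for Ncf4, 2.44 for Rac2 and 0.625 for Nox4. Where no cause is named, the cause was not tested. The block changed no other call among the oxidase genes than those given above. Depth limits Nox1.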
